A study of Homo sapiens with 6 samples.

Results

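MYC, its obligate partner MAX and the other transcription factors that pair with MAX were followed in ALL-SIL cells exposed to JQ1. The 8 genes (MYC, MAX, MXD1, MXD3, MXD4, MXI1, MNT and MGA) were chosen by name, and all 8 were found among the 58096 genes of the count files and passed the filter on low counts. ALL-SIL is an established human T-cell acute lymphoblastic leukaemia line, and JQ1 is a small molecule that competes with acetylated histone tails for the bromodomains of BET proteins. There were 3 libraries labelled JQ1, given as 1 µM for 24 h, and 3 labelled DMSO, the solvent. All libraries come from the same line, and the treatment text of the DMSO samples repeats the JQ1 dose and time, so the titles alone give the groups. Nothing in the labels tells whether replicates came from separate cultures, and p-values therefore cover only the variation among these libraries, part or all of which could be technical.

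MYC binds DNA only as a dimer with MAX, through a basic helix-loop-helix leucine zipper, and the dimer recruits activating cofactors to E-box sequences at genes of growth and metabolism. MXD1, MXD3, MXD4, MXI1 and MNT use the same zipper to pair with MAX, bind the same sequences and bring in the SIN3 co-repressor. Some of them are known for roles in differentiating or resting cells. MGA, the largest of these proteins, also pairs with MAX and carries it into a Polycomb complex, PRC1.6. In T-cell leukaemia MYC is a main driver of growth, often downstream of NOTCH1, and its transcription is a classic target of BET inhibitors.

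The libraries held 15925885 to 25293884 reads on the sense strand of genes. Of 12 T-lineage marker genes 11 were expressed well enough to be tested, with a summed level of 1996 to 2220 CPM in DMSO and 1326 to 1559 CPM in JQ1, where CPM is the usual unit of read counts scaled to a fixed library total. By the test described with MYC, 7 of the 11 fell and 1, TLX1, rose (named after its value was seen). The 7 are 63.6% of those tested, beside 20.6% of all genes called lower. A gene low in JQ1 could pass the filter on low counts through its DMSO level alone, so this share is a description. CD2, named after its value was seen, had 24, 29 and 49 reads in DMSO replicates 1, 2 and 3, against 3, 1 and 0 in JQ1. The sum of 6 B-lineage markers was 12.2 to 24.6 CPM in DMSO and 1.57 to 6.32 CPM in JQ1, with MS4A1 and EBF1 at 0. The 2 that were tested, named after their values were seen, were CD79A and CD79B. CD79A had 174, 307 and 101 reads in DMSO, against 125, 71 and 7 in JQ1, and did not pass (edgeR adjusted p = 0.17). CD79B fell, with 150, 303 and 188 reads in DMSO, against 27, 36 and 14 in JQ1 (log2 change -2.82 ± 0.29, edgeR adjusted p = 7.6e-05). Myeloid markers summed to at most 0.483 CPM and erythroid markers to at most 0.0395 CPM, and among the stromal and epithelial markers PECAM1, which leukocytes also make, gave nearly all of 69.5 to 92.3 CPM in DMSO and 4.58 to 9.68 CPM in JQ1, with COL1A2 and DCN at 0. The part of these shifts in the results that follow was not tested.

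An E-box, CACGTG, is the site that MYC-MAX and MXD-MAX dimers share. MXD1, MXD3 and MXD4 had the largest positive log2 changes of the 8 genes, and of these only MXD1 passed the test described with MYC. To be read for the E-box, sequences before their RefSeq starts are printed here. Each begins 250 bases before a RefSeq start (GRCh38.p14) and ends at the next exon that GENCODE annotates downstream, 5′ to 3′ on the strand of the gene, with any CACGTG in capitals. The MXD1 sequence has 182 bases on the plus strand (chr2:69914859-69915040), that of MXD3 has 245 on the minus strand (chr5:177312758-177313002) and that of MXD4 has 65 on the minus strand (chr4:2262295-2262359). GENCODE begins MXD1 further upstream, at base 69897688 of chromosome 2, and the bases before that start were not searched.
MXD1: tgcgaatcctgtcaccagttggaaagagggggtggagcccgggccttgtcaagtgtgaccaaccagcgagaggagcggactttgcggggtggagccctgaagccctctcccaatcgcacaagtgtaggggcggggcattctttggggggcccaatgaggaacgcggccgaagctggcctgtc
MXD3: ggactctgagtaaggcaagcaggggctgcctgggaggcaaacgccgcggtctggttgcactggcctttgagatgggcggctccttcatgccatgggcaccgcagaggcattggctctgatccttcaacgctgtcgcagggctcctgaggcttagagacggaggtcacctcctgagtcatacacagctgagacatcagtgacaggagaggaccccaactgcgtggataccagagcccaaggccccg
MXD4: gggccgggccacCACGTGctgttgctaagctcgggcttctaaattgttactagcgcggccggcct
The MXD4 sequence held 1 E-box, 238 bases before the RefSeq start, and the MXD1 and MXD3 sequences held none. Among the 7 members that could be searched, MNT held the only other E-box. It lay 193 bases before the MNT start on the minus strand (chr17:2401237-2401264) and is shown with 11 bases on either side.
MNT: cctgcccgggcCACGTGtgcgcgcgccg
RefSeq windows of 300 bases (250 before to 50 after a start) were at hand for 7 of the 8 genes, 12 windows in all, and 2 of the 7 genes held the motif. No window was at hand for MYC, so its start was not searched. CACGTG is its own reverse complement, so 1 search reads both strands. Of all 35116 windows 7.26% held it, and of the 27305 genes with a window 8.77% did. A match describes letters and is not evidence of binding, and other forms of the E-box were not searched.

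MYC RNA fell. The DMSO libraries stood at 345, 363 and 368 CPM (replicates 1, 2 and 3, here and below) and the JQ1 libraries at 119.8, 149 and 137 CPM. Every JQ1 library lay far below every DMSO library. The fall was 2.65-fold, from 358 ± 12.1 to 135 ± 14.8 CPM (SD, n = 3), a log2 change of -1.41 ± 0.10 (SE; edgeR adjusted p = 1.4e-05). Between libraries of the same number it was 2.88-fold, 2.43-fold and 2.69-fold. The counts behind it were large, 7002 to 9709 reads in DMSO and 2122 to 3182 in JQ1 (ENSG00000136997.15). Reads on the opposite strand of MYC numbered 56 over all 6 libraries, 0.163% of the reads of both strands there. This and every other level is relative to all gene reads of a library, and in bulk RNA fewer cells of a type and less RNA per cell cannot be told apart.

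MAX, the shared partner, had nearly the same level in all libraries. It had 123, 122 and 115 CPM with DMSO, against 125, 120.4 and 121 CPM with JQ1. The groups overlapped, and the log2 change was 0.03 ± 0.08 (edgeR adjusted p = 0.83). MAX (ENSG00000125952.18) lies on chromosome 14, 65006174 to 65102695, minus strand, and an antisense gene overlaps its exons, with 29 reads in all on the opposite strand. The sign turned (-0.04) when libraries were scaled by size alone.

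MXD1 rose. This gene, also called MAD1, encodes the founding member of the repressor group and is known to be induced as blood cells differentiate. Its level was 11.8, 15.9 and 10.9 CPM with DMSO, against 32.2, 29.1 and 25.7 CPM with JQ1. All JQ1 libraries lay above all DMSO libraries. The rise was 2.25-fold, from 12.9 ± 2.62 to 29.01 ± 3.25 CPM (SD, n = 3), a log2 change of 1.17 ± 0.15 (edgeR adjusted p = 0.0003). MXD1 (ENSG00000059728.10, chromosome 2, 69897688 to 69942945, plus strand) shares 172 bases of exon on the same strand with SNRNP27. SNRNP27 itself did not pass by group only (0.28 ± 0.12 on the log2 scale, edgeR adjusted p = 0.09), but did with the block (0.27, edgeR adjusted p = 0.011) and without JQ1 replicate 2 (0.37, edgeR adjusted p = 0.043).

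MXD3, the family member known for expression in dividing cells, varied most between libraries. It had 28.7, 43.3 and 20.5 CPM with DMSO, against 41.4, 80.6 and 40.4 CPM with JQ1. Replicate 2 was the highest in both groups, and DMSO replicate 2 lay above JQ1 replicates 1 and 3, so the groups overlapped. JQ1 was higher in each of the 3 pairs of libraries with the same number (1.44-fold, 1.86-fold and 1.97-fold). The log2 change of 0.81 ± 0.37 did not pass the test (edgeR adjusted p = 0.14). With the replicate number as a block it did, at 0.80 ± 0.08 (edgeR adjusted p = 2.1e-09). It also passed without DMSO replicate 2 (1.15, edgeR adjusted p = 0.0499), and was 0.41 without JQ1 replicate 2.

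Reads at the MXD3 locus need care, since its exons overlap those of RAB24 on the same strand and of PRELID1 on the other. MXD3 (ENSG00000213347.10) lies on chromosome 5, 177301461 to 177312757, minus strand. On the strand opposite to MXD3 there were 942, 1001 and 1300 reads with DMSO, against 886, 639 and 564 with JQ1, which is 48.8% of the reads of both strands over the 6 libraries. Those opposite reads fell, with a log2 change of -0.47 ± 0.13 (edgeR adjusted p = 0.015), in a table where 17.8% of 7018 genes with enough opposite-strand reads were called. PRELID1, a mitochondrial lipid carrier gene, had a sense log2 change of -0.43 ± 0.11 (edgeR adjusted p = 0.011). RAB24, at 1.62 ± 0.329 CPM in DMSO, had 0.25 ± 0.25 (edgeR adjusted p = 0.47).

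MXD4, the most abundant MXD gene in DMSO by reads, showed a smaller difference of the same sign. Its level was 50.7, 58.6 and 48.2 CPM with DMSO, against 65.1, 88.2 and 54.3 CPM with JQ1. JQ1 replicate 3 lay below DMSO replicate 2, so the groups overlapped, while each JQ1 library was above the DMSO library of its own number (1.28-fold, 1.504-fold and 1.13-fold). The log2 change of 0.40 ± 0.16 did not pass the test (edgeR adjusted p = 0.083; ENSG00000123933.15). The block gave 0.38 ± 0.07 (edgeR adjusted p = 5.0e-05). The fit without JQ1 replicate 3 gave 0.55 (edgeR adjusted p = 0.016), the fit without JQ1 replicate 2 gave 0.19, and the fit with no filter on low counts gave 0.38 (edgeR adjusted p = 0.0028).

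MXI1 and MNT were low, and neither passed the test in any fit. MXI1, also called MAD2, had 9.11, 9.03 and 8.18 CPM with DMSO, against 9.62, 8.03 and 9.02 CPM with JQ1, a log2 change of 0.02 ± 0.14 (edgeR adjusted p = 0.93). MXI1 (ENSG00000119950.20, chromosome 10, 110207605 to 110287365, plus strand) overlaps an antisense gene, and 13.6% of the reads of both strands were opposite. MNT, known as the most widely expressed of the MAX-bound repressors, had 5.66, 6.48 and 7.12 CPM with DMSO, against 6.51, 7.27 and 7.67 CPM with JQ1. JQ1 was higher in each of the 3 numbered pairs of MNT, by at most 1.15-fold, but the groups overlapped and the log2 change of 0.15 ± 0.16 did not pass (edgeR adjusted p = 0.5; ENSG00000070444.14, chromosome 17, 2384060 to 2401118, minus strand). MNT rests on 115 to 188 reads a library.

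MGA was the gene with the most reads of the 8 in JQ1 and its mean hardly differed between groups. It had 404, 436 and 358 CPM with DMSO, against 381, 419 and 395 CPM with JQ1. The JQ1 values lay inside the DMSO range, and the log2 change was -0.00 ± 0.11 (edgeR adjusted p = 0.98; ENSG00000174197.16, chromosome 15, 41621224 to 41773081, plus strand). With 1 library left out the value ran from -0.07 to 0.07.

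**Figure D1:**
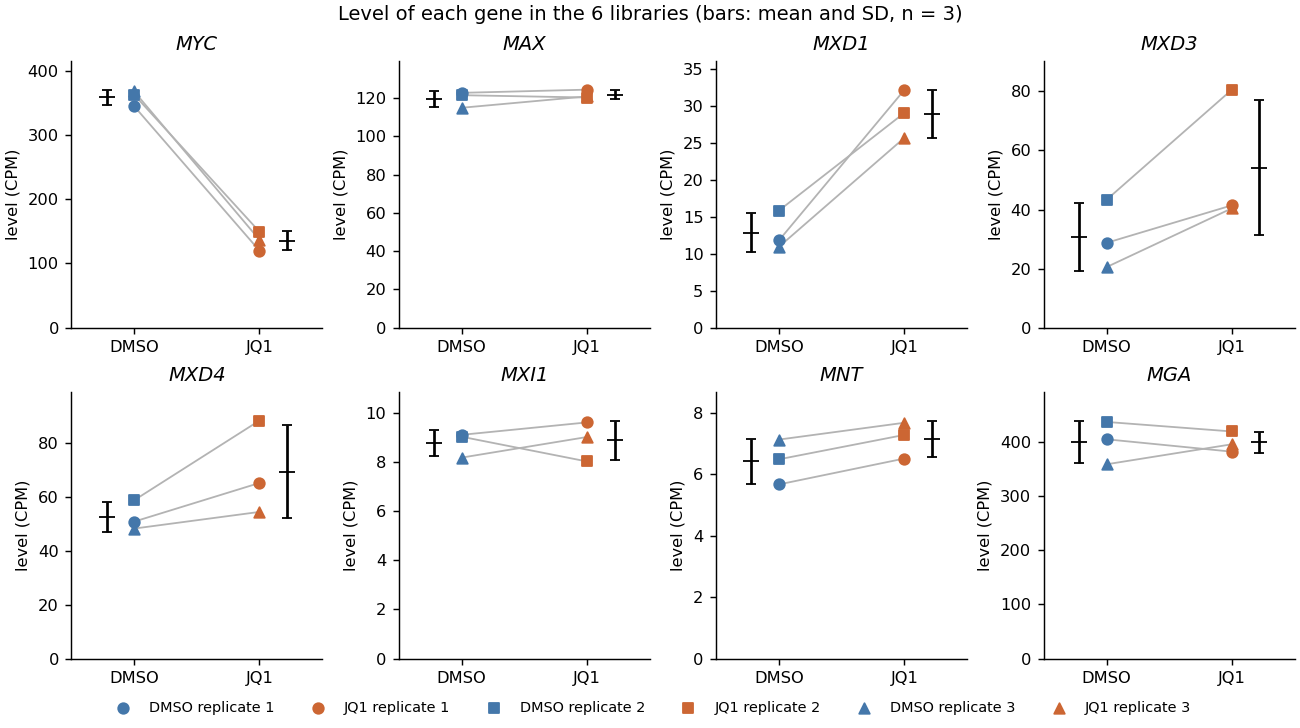
Level in CPM (y axis, from 0) of each of the 8 genes in DMSO and JQ1 libraries (x axis), with 1 symbol per replicate number, grey lines between libraries of the same number, and bars for mean and SD (n = 3). MYC is lower and MXD1 higher in all JQ1 libraries, and replicate 2 (squares) is the highest of both groups for MXD3 and MXD4.

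In all, 1 of the 8 genes was called higher and 1 lower, which is 25%, below the 36.6% of all 13975 tested genes that were called (15.9% higher and 20.6% lower). The groups did not overlap for 2 of the 8, against 48.9% of tested genes. With the block 3 were higher and 1 lower, 4 of 8 in all, against 56.9% of all genes called (27.3% higher and 29.6% lower). The share of called genes in the family lay below that of all genes in both fits, so the counts single out nothing. The median log2 change of the 8 was 0.09, beside 0.00 over all tested genes.

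**Figure D2:**
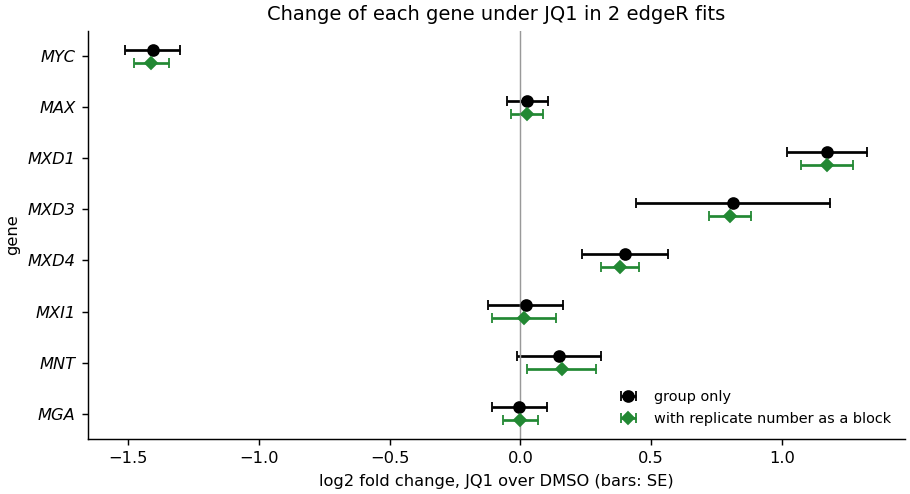
Log2 fold change of JQ1 over DMSO (x axis) for each gene (y axis) in the edgeR fit by group only (black circles) and with the replicate number as a block (green diamonds), with bars for SE. The estimates nearly coincide, and the SE of MXD3 is 0.37 by group only and 0.08 with the block.

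Reads per gene depend on transcript length, so levels were compared between genes as CPM per kilobase of exon, over the union of all annotated exons. In DMSO the order was MYC (119 ± 4.02), MAX (27.0 ± 0.947), MGA (22.6 ± 2.22), MXD4 (7.44 ± 0.774), MXD3 (5.98 ± 2.24), MXD1 (2.03 ± 0.413), MXI1 (1.91 ± 0.112) and MNT (0.736 ± 0.0838), each as mean ± SD over n = 3 libraries. MXD4 and MXD3 overlapped between libraries, as did MXD1 and MXI1, so those neighbours are not ordered beyond their spread. In JQ1 MYC was still the highest at 45.1 ± 4.94 CPM per kilobase, followed by MAX at 27.5 ± 0.502 and MGA at 22.6 ± 1.07. MXD3 at 10.5 ± 4.44 and MXD4 at 9.80 ± 2.45 overlapped again in JQ1. MXD1 at 4.57 ± 0.511 now stood clear of MXI1 at 1.93 ± 0.175, with MNT last at 0.819 ± 0.0678. The values change with the length assumed: with the longest transcript of each gene MXD3 had 13.5 and MXD4 12.4 CPM per kilobase in DMSO, and MXD1 (2.31) came below MXI1 (2.53).

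Because all of these factors compete for MAX, the level of MYC was set against that of the repressors in each library. The per-length level of MYC divided by the sum of MXD1, MXD3, MXD4, MXI1 and MNT was 6.66, 5.52 and 8.11 with DMSO, against 1.59, 1.41 and 2.03 with JQ1. The mean went from 6.76 ± 1.30 to 1.68 ± 0.321 (SD, n = 3), and the groups lay far apart. The summed level of the 5 repressors was 15.1 to 21.9 CPM per kilobase in DMSO and 22.4 to 35.3 in JQ1, but MXD3 and MXD4, which make up most of that sum, did not pass the test by group only. MYC over MAX went from 4.42 ± 0.289 to 1.64 ± 0.207, so per kilobase of exon MYC stayed above MAX in all 6 libraries. Without division by length MYC lay below MAX in JQ1 replicate 1 (119.8 and 125 CPM). Of the summed level of all 7 MAX partners, MYC made up 72.2% to 77.6% in DMSO and 45.8% to 50.4% in JQ1. The share of MGA went from 14.1% ± 1.11 to 23.8% ± 1.76 (SD, n = 3), although its own level did not pass the test, because shares of one sum move together. These ratios are built from the members' levels and are given with no test, and RNA levels say nothing direct of protein.

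**Figure D3:**
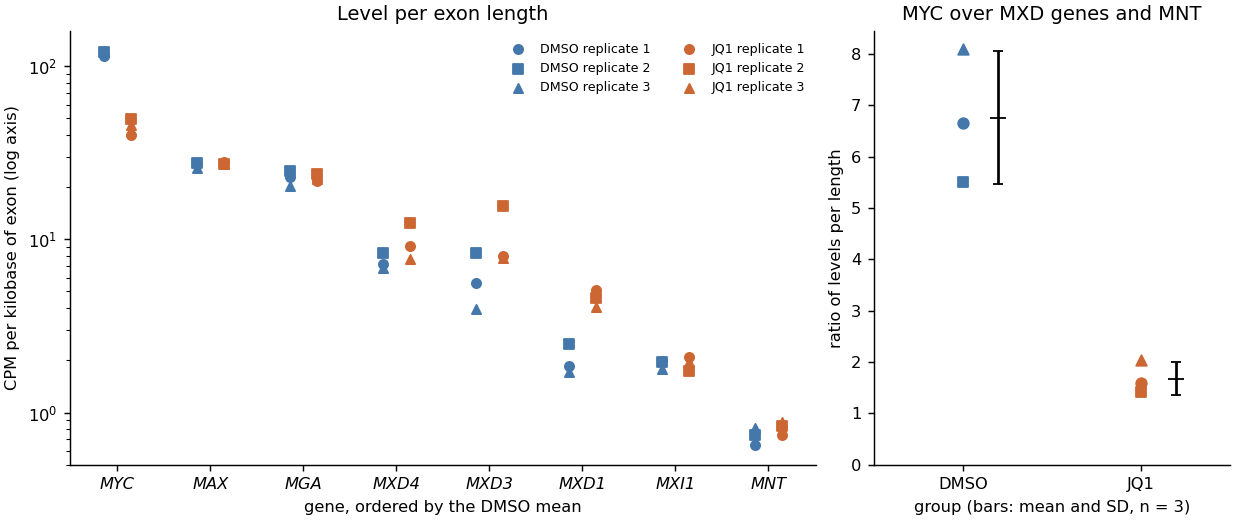
Left, CPM per kilobase of exon (log axis) of the 8 genes in each library, DMSO in blue and JQ1 in orange, ordered by the DMSO mean. Right, the ratio of MYC to the summed MXD1, MXD3, MXD4, MXI1 and MNT levels per library with mean and SD (n = 3), 5.52 to 8.11 in DMSO and 1.41 to 2.03 in JQ1.

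Genes whose pattern was most like that of MYC were sought among 8334 protein-coding genes with at least 10 CPM on average, by the root mean square difference of log2 CPM over the 6 libraries after centring each gene on its own mean. The 5 nearest were TRIM14 (0.07), SORBS3 (0.07), AMPD3 (0.08), CEP41 (0.08) and SMARCAL1 (0.08). Their log2 changes ran from -1.45 for AMPD3, which encodes an AMP deaminase, to -1.27 for SMARCAL1, a DNA annealing helicase. Nearest to MXD1 were MKNK1 (0.11), CDKN2D (0.12), RSRP1 (0.12), CSRNP2 (0.12) and HYCC1 (0.13). CDKN2D, an inhibitor of the kinases CDK4 and CDK6, had 10.1 ± 2.09 CPM in DMSO and 22.4 ± 2.15 in JQ1. The measure mostly ranks genes by the size of their group difference and is a description only.

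The MLX branch is the parallel arm of the network, in which MLX takes the place of MAX and MLXIP (MondoA) senses glucose. MLX fell, with a mean of 58.1 ± 4.75 CPM in DMSO and 48.1 ± 2.47 in JQ1 (log2 change -0.27 ± 0.09 by edgeR, adjusted p = 0.041). MLXIP rose from 48.2 ± 5.06 to 61.7 ± 3.33 CPM (0.36 ± 0.10, edgeR adjusted p = 0.017). The MLX call was lost without any 1 of JQ1 replicates 1, 2 and 3 and DMSO replicates 1 and 3 (edgeR adjusted p from 0.073 to 0.13) and with DESeq2 (adjusted p = 0.064). The MLXIP call was lost without JQ1 replicate 2 (edgeR adjusted p = 0.056) or DMSO replicate 1 (0.062). MYCN and MLXIPL are listed at 0 reads in all libraries and MYCL at no more than 2 in any.

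Subunits of the SIN3 co-repressor, which MXD and MNT proteins recruit, showed small differences. The scaffolds SIN3A (0.03 ± 0.09, edgeR adjusted p = 0.82) and SIN3B (0.02 ± 0.10, edgeR adjusted p = 0.9) did not pass, and their signs turned with library size only (-0.03 and -0.05). Of 17 tested genes 5 rose and 0 fell by edgeR (6 higher and 0 lower at an unadjusted p below 0.05, 5 and 0 by DESeq2 and by limma-voom), with a median log2 change of 0.06. That is 29.4% called, beside 36.6% of all genes (15.9% higher). ING1, a reader of methylated histone H3, rose by 0.72 ± 0.10 (edgeR adjusted p = 0.00032). The others were SAP30 (0.55 ± 0.16), SAP130 (0.32 ± 0.10, named after its value was seen), ARID4B (0.31 ± 0.09) and ARID4A (0.27 ± 0.09). Of these ING1 held without any 1 library. The call was lost for ARID4A without each library but JQ1 replicate 1, for SAP130 without each but JQ1 replicate 2, for ARID4B without JQ1 replicate 2 or 3 or DMSO replicate 1 or 3, and for SAP30 without JQ1 replicate 1 or 2. ARID4A and SAP130 were also lost without a count filter, and ARID4A on unstranded counts. Without 1 library the count was 2 to 4 (2 without JQ1 replicate 3 or DMSO replicate 3, and 3 without JQ1 replicate 1, JQ1 replicate 2 or DMSO replicate 2), and scaling by library size alone gave 3 and a median of -0.00. With the block 7 rose and 0 fell, beside 27.3% of all genes called higher and 29.6% called lower.

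MGA shares the PRC1.6 complex with E2F6, PCGF6 and L3MBTL2. Of 12 genes of that complex 2 rose and 1 fell, 25% in all, beside 36.6% of all genes. RYBP, a stimulator of the ubiquitin ligase module, rose by edgeR (adjusted p = 0.00014), at 38.9 ± 1.07 CPM with DMSO and 63.8 ± 1.82 with JQ1 (log2 change 0.72 ± 0.08). RING1, one of the 2 alternative ligases, rose by 0.35 ± 0.08 (edgeR adjusted p = 0.0083). L3MBTL2 fell by 0.56 ± 0.10 on the log2 scale (edgeR adjusted p = 0.0014). E2F6, PCGF6 and RNF2 had log2 changes of -0.06, -0.21 and -0.13 and did not pass by group only, while PCGF6 did with the block (-0.22, edgeR adjusted p = 0.04). With the block 2 rose and 3 fell, beside 56.9% of all genes called.

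The list of MYC cofactors also held other factors linked to MYC, and of its 19 tested genes 6 fell and 1 rose, with a median of -0.17. That is 36.8% called, close to the 36.6% of all genes. By direction 31.6% were lower, beside 20.6% of all genes, and 5.26% higher, beside 15.9%, and this split was not tested. TFAP4, a helix-loop-helix factor that is itself a known MYC target gene, fell by edgeR (adjusted p = 5.7e-05), at 29.6 ± 3.55 CPM with DMSO and 9.98 ± 1.91 with JQ1 (log2 change -1.58 ± 0.15). KAT2A, the acetyltransferase GCN5, fell by 0.79 ± 0.11, and the paired ATPases RUVBL1 and RUVBL2 fell by 0.49 ± 0.10 and 0.50 ± 0.11. The only rise was that of the acetyltransferase gene EP300 (0.23 ± 0.08, edgeR adjusted p = 0.045, named after its value was seen). That call was lost without any 1 of the 6 libraries (edgeR adjusted p from 0.056 to 0.15), with library size only (0.16), without a count filter (0.16) and on unstranded counts (0.074). The scaffold TRRAP (-0.20 ± 0.13, edgeR adjusted p = 0.25) did not pass by group only, but did with the block (-0.20, edgeR adjusted p = 0.0074). With the block 9 fell and 2 rose, beside 56.9% of all genes called (29.6% lower and 27.3% higher).

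Among 19 tested genes that act on MYC protein turnover 5 rose and 2 fell, with a median of 0.15. That is 36.8% called, beside 36.6% of all genes, so the total count does not stand out from the background. By direction 26.3% were higher, beside 15.9% of all genes, and 10.5% lower, beside 20.6%, and this split was not tested. FBXW7, the ligase subunit that recognises phosphorylated MYC, rose by edgeR (adjusted p = 0.00035), at 86.0 ± 3.38 CPM with DMSO and 129 ± 2.73 with JQ1 (log2 change 0.59 ± 0.08). GSK3B, the kinase that creates the mark FBXW7 reads, rose by 0.45 ± 0.08 (edgeR adjusted p = 0.0021). PPP2R5A, a regulatory subunit of the phosphatase PP2A, rose by 0.58 ± 0.08 (edgeR adjusted p = 0.00052). FBXO32, another ligase subunit, fell by edgeR (adjusted p = 4.1e-05), at 5.94 ± 0.821 CPM with DMSO and 1.00 ± 0.188 with JQ1 (log2 change -2.55 ± 0.23). The other calls, named after their values were seen, were rises of the ligase gene STUB1 (0.40 ± 0.09) and the PP2A inhibitor gene CIP2A (0.29 ± 0.08) and a fall of the deubiquitinase gene USP36 (-0.51 ± 0.12). The CIP2A call was lost without JQ1 replicate 1 or 3 or DMSO replicate 3 (edgeR adjusted p from 0.060 to 0.066). AURKA (-0.13 ± 0.31) and PLK1 (-0.13 ± 0.44), mitotic kinases that stabilise MYC proteins, did not pass, and both turned sign without DMSO replicate 2 (0.17 and 0.39) or JQ1 replicate 1 (0.02 and 0.04). With the block 9 rose and 3 fell, beside 56.9% of all genes called (27.3% higher and 29.6% lower).

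Of 40 genes known to be activated by MYC 20 fell, 1 rose and 19 did not pass. Those called lower were 50% of the list, beside 20.6% of all genes, and the median log2 change was -0.43. A gene low in JQ1 could pass the filter on low counts through its DMSO level alone, so the share is a description. CCND2, named after its value was seen, had 12, 26 and 35 reads with DMSO, against 3, 7 and 9 with JQ1. The 1 that rose was E2F2, a cell cycle factor (0.37 ± 0.13, edgeR adjusted p = 0.049, named after its value was seen). The E2F2 call was lost without JQ1 replicate 1, 2 or 3 or DMSO replicate 2 (edgeR adjusted p from 0.0501 to 0.16), with library size only (0.11) and with unstranded counts (0.057). NME1, a nucleoside diphosphate kinase, fell by edgeR (adjusted p = 3.3e-05), at 106 ± 7.09 CPM with DMSO and 37.8 ± 6.85 with JQ1 (log2 change -1.48 ± 0.13). SLC19A1, which carries folate into cells, fell by 1.38 ± 0.15, NOP16 of the nucleolus by 1.18 ± 0.11 and the RNA polymerase I subunit gene POLR1B by 1.13 ± 0.11. ODC1, the polyamine synthesis gene, did not pass by group only (-0.42 ± 0.34, edgeR adjusted p = 0.37) but did with the block (-0.43, edgeR adjusted p = 4.4e-07). CAD (-0.07 ± 0.13, edgeR adjusted p = 0.7) and NCL (-0.13 ± 0.14, edgeR adjusted p = 0.51) passed in neither fit. These 3 were named after their values were seen. With the block 31 fell and 2 rose, beside 29.6% of all genes called lower and 27.3% called higher.

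Of 24 genes listed as repressed by MYC, 17 passed the filter on low counts. Of these 9 rose and 0 fell by edgeR, with a median of 0.68. DESeq2 gave 11 and 0, with 2268 of all genes higher and 2741 lower. By limma-voom 9 rose and 0 fell, with 2239 of all genes higher and 2877 lower. At an unadjusted p below 0.05 in edgeR there were 11 and 0, but all genes were not counted at that threshold. The 9 of edgeR are 52.9% of those tested, beside 15.9% of all genes called higher. A gene low in DMSO could pass that filter through its JQ1 level alone, so the count is a description. SESN2, a brake on mTORC1, rose by edgeR (adjusted p = 0.00013), at 8.88 ± 1.73 CPM with DMSO and 22.8 ± 1.95 with JQ1 (log2 change 1.36 ± 0.15). GADD45A, a growth arrest gene, rose by 1.35 ± 0.19, NDRG1 by 1.26 ± 0.17 and the antiproliferative gene BTG1 by 0.94 ± 0.16. With the block 13 rose and 0 fell, beside 27.3% of all genes called higher and 29.6% called lower. CDKN1A, the classic MYC-repressed cell cycle inhibitor, had at most 3 reads in any library and was not tested. Both lists were put together from general knowledge of MYC, but with earlier results of these data known, so their shares are descriptions. Many of their genes answer to other factors too, and the part of MYC itself was not tested.

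E-boxes were counted in the same lists. Of 37 activated genes with a RefSeq window 20 held CACGTG (54.1%, beside 8.77% of all genes), and of 18 repressed genes 7 did (38.9%). A gene with several windows counted if any held it, and per window the shares were 37.7% and 28.6%, beside 7.26%. Both lists rest on general knowledge of MYC, so E-boxes could have entered through the choice of genes. The 8.77% covers genes with a window whether or not they were tested here. These shares are therefore descriptions. In the activated list 10 of 20 genes with the box and 9 of 17 without it fell, with median log2 changes of -0.41 and -0.44, and the difference was not tested. Sites of 2 genes named above are shown as examples with the E-box in capitals, in NME1 34 bases after the start (chr17:51153582-51153608, plus strand) and in SLC19A1 32 bases after the third of its 4 listed starts (chr21:45541798-45541825, minus strand).
NME1: gtgctgcgaacCACGTGggtcccgggc
SLC19A1: tcgcgcccaggCACGTGttgcttcggga
The windows of NOP16 and POLR1B held no CACGTG.

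**Figure D4:**
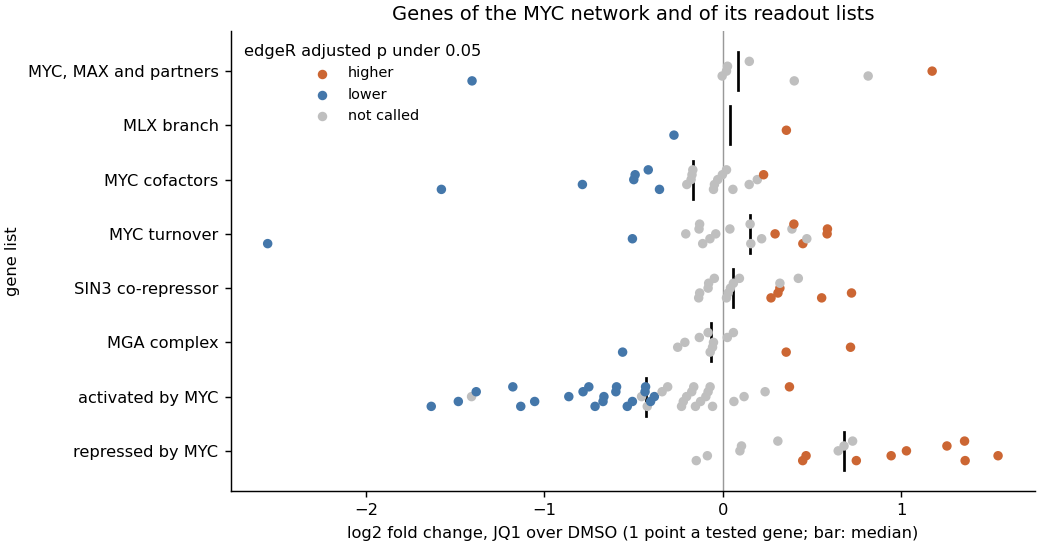
Log2 fold change of JQ1 over DMSO (x axis) of every tested gene in 8 lists (y axis), 1 point a gene, orange for called higher, blue for called lower and grey for not called by edgeR, with a bar at the list median. The genes activated by MYC lie mostly left of 0 (median -0.43) and those repressed by MYC right of 0 (median 0.68), while the 8 MAX network genes spread to both sides.

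Of 13 matched genes listed as neighbours of MYC on chromosome 8, 7 were tested, and 1 fell and 1 rose (28.6% called, beside 36.6% of all genes). Among those not tested PVT1 had 0 reads in all libraries, CASC11 at most 4 in any and POU5F1B at most 1. Distances from MYC were not measured. ASAP1, a GTPase-activating protein gene, rose by edgeR (adjusted p = 0.00038), at 31.8 ± 4.25 CPM with DMSO and 58.4 ± 6.06 with JQ1 (log2 change 0.88 ± 0.12). CCDC26, a long noncoding RNA gene, fell, with 19, 23 and 18 reads with DMSO, against 5, 3 and 0 with JQ1 (log2 change -2.65 ± 0.54, edgeR adjusted p = 0.0035). CCDC26 could pass the filter on low counts through its DMSO level alone, so the size of its fall is uncertain and the call is a description. With the block 3 rose and 3 fell, beside 56.9% of all genes called.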

How the data were processed

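Total RNA libraries, 3 JQ1 and 3 DMSO, were prepared with a strand-keeping kit per the labels' protocols, and the submitters' processing notes name genome build GRCh38. Sources used here do not give an aligner, an annotation release or any trimming. The deposited values are raw read counts per gene (1 column that ignores strand and 1 for either strand), in the layout of STAR's gene counts, which leave out reads of several places or several genes. Counts of the last column served as sense counts, with 20.9 to 22.6 times as many gene reads as the opposite strand. The first 4 lines of each file (1.48% to 1.99% unmapped, 14.1% to 15.7% multimapping, 18.8% to 26.1% in no gene, 3.38% to 3.88% ambiguous) stayed out of all totals.

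Members were matched by Ensembl identifier to GENCODE 29 names. Of 58096 identifiers 57488 matched, 53747 with their version, and gene positions are printed only for the latter. MYC and MXD4 matched without it. RefSeq windows are of GRCh38.p14 and were cut at GENCODE 29 exons, that of MXD4 included. Genes were kept with filterByExpr (minimum count 10, minimum total 15), leaving 13975, scaled by TMM (0.965 to 1.06) and tested with edgeR 4.0.16 (glmQLFit, robust; glmQLFTest; group only) under R 4.3.3. P-values were adjusted by Benjamini-Hochberg across every tested gene, and 0.05 was the threshold. An SE was taken as the absolute log2 change divided by the root of the F statistic. CPM uses the scaled library size, except the marker sums, which use gene reads. The code was tested on simulated counts with known changes. Replicates of each group differed by more than sampling noise (chi-square over degrees of freedom 15.4 to 31.9).

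Libraries of the same number deviated together from their group means (correlations 0.33, 0.43 and 0.37 for numbers 1, 2 and 3 over genes, each the highest for its library), so the numbers were taken to pair the libraries. That pairing comes from the data, since no label explains the numbers, and blocking on them was an alternative. The other alternatives were relative log expression and upper-quartile factors, library size only, DESeq2 1.42.0, limma-voom (limma 3.58.1), no filter, at least 1 CPM in 3 libraries, unstranded counts, a test against a fold change of 1.5, each library left out, and the longest transcript as length.

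Named genes were the members, up to 4 called genes with the smallest p per list (all called where at most 5 were tested), and the 5 genes nearest in pattern to MYC and to MXD1, the member with the largest called rise. Genes named as not passing, and those marked so in the text, were picked after their values were seen. The members and lists were chosen with earlier results of these data known.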

Additional observations from a re-analysis of the deposited data

How the results depend on the processing

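The calls of MYC (log2 change -1.48 to -1.32) and MXD1 (1.07 to 1.36) held in all 16 alternatives. With the replicate block, the pairing by number, 3813 genes were higher in place of 2227, and 4 members were called, MXD3 (0.80) and MXD4 (0.38) being added. The block called 11 MYC cofactors, 12 turnover genes, 5 PRC1.6 genes, 33 activated genes and 6 chromosome 8 neighbours. Without it the counts were 7, 7, 3, 21 and 2. Of all tested genes 56.9% were called with the block and 36.6% without it, so a larger count in a list is no result about that list by itself. The block changed no other member's call. The test against a fold change of 1.5 called 246 genes higher and 899 lower of 13975 tested. In the lists it called 0 of 2 MLX branch genes, 1 of 19 cofactors and 1 of 19 turnover genes. It called 0 of 17 SIN3 genes, 0 of 12 PRC1.6 genes, 6 of 40 activated and 3 of 17 repressed genes. Fewer of all genes were called there too, so a smaller count is no result about a list by itself. DESeq2 called 1 of 2 in the MLX branch, with 2268 of all genes higher and 2741 lower. Library size only called 3 of 17 SIN3 genes and 4 of 7 neighbours, with 1697 of all genes higher and 3245 lower. At least 1 CPM left 1 neighbour, with 2224 of 12187 tested genes higher and 2686 lower. MXD4 was called with no filter (0.38).

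Signs of uncalled values turned for MAX (-0.036), MXI1 (-0.040), SIN3A (-0.031) and SIN3B (-0.045) with library size only, and for MGA with relative log expression (0.0066), upper-quartile factors (0.0145), DESeq2 (0.0066) and at least 1 CPM (0.0053). Without 1 library the values ran from 0.41 to 1.15 for MXD3, 0.19 to 0.55 for MXD4, -0.042 to 0.090 for MXI1, -0.073 to 0.069 for MGA, -0.45 to 0.17 for AURKA, -0.57 to 0.39 for PLK1, -0.018 to 0.073 for SIN3A, -0.049 to 0.072 for SIN3B and -0.14 to 0.052 for CAD, and the calls from 0 to 2 in the MLX branch and 2 to 4 in SIN3. The causes of these shifts were not tested.

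With the longest transcript as length the DMSO levels were 152 CPM per kilobase for MYC, 38.0 for MAX, 13.5 for MXD3, 12.4 for MXD4, 2.53 for MXI1, 1.29 for MNT and 27.7 for MGA, and MYC over the repressors was 4.87 in DMSO and 1.20 in JQ1. Unstranded counts gave 24.9 for MAX, 2.23 for MXI1 and 0.623 for MNT. The 903 reads of MNT and 1180 of MXI1 over 6 libraries limit how small a difference could be seen.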
